A study of Mus musculus with 2 samples.

Results

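The cells described here were β cells of wild-type (WT) mice that gave a large number of transcripts. They were barcodes of the WT library with at least 15000 unique molecular identifiers (UMIs, each marking 1 captured transcript), at most 20% of UMIs from mitochondrially encoded genes, at least 40% from the insulin genes Ins1 and Ins2 together, and under 1% from each of the hormone genes Gcg, Sst, Ppy and Pyy. The members were thus selected on total UMIs, the mitochondrial share, the insulin share and the shares of 4 other hormones, so the insulin share and the low levels of the other hormones are given as description and support nothing. Of 3895 WT barcodes 1640 (42.1%) were members, out of 12846 barcodes in both libraries of the series, and they held 81.0% of the WT UMIs. The WT library came from islets of male C57/B6 mice aged 16 weeks, wild-type and with no diet named in the labels. Islets of 4 mice were pooled, dispersed and cleared of dead cells before capture with the 3' v3 chemistry of 10x Genomics. The second library, from mice fed a high-fat diet, was used only to count shared barcodes. With 1 library and mice that cannot be separated, no test between animals was possible: intervals cover counting error only (95%, exact), and a spread over cells is a spread within 1 pool.

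A β cell makes insulin as a preprohormone that is folded and disulfide-bonded in the endoplasmic reticulum (ER), cut by prohormone convertases in the secretory granule, and stored there with zinc and with other granule proteins. Glucose enters through GLUT2, and its oxidation closes ATP-sensitive potassium channels, which opens calcium channels and releases granules. Transcription factors such as Pdx1, Mafa and Nkx6-1 keep these genes on, and a set of metabolic genes common in other tissues is kept off.

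Members followed from 1852 WT barcodes with enough UMIs, of which 1851 passed the mitochondrial limit, 1734 the insulin limit, and 1640 the limits on the other hormones. The study's own filter kept libraries of up to 15000 UMIs, so every member lies at or above that maximum. Total UMIs per member ranged from 15003 to 131907 with a median of 32388, and the median cell had 3789 genes detected. Near the limits, 30 insulin cells had 13500 to 15000 UMIs (median insulin share 51.8%) and 60 members had 15000 to 16500 (53.1%). No barcode that met the other limits had an insulin share of 35 to 40%, and 13 members had 40 to 45%. By the highest of the other hormones, 29 members lay at 0.5 to 1% and 40 barcodes just outside at 1 to 2%, with median totals of 57232 and 45349 UMIs. Of the WT barcodes, 9 also occurred among the 8951 barcodes of the other library, and 4 of these were members.

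The label was checked against markers that the rule did not use. Ucn3 (urocortin 3, a marker of mature β cells) was detected in 96.5% of members, G6pc2 (the islet glucose-6-phosphatase) in 99.8%, Mafa in 98.0% and the β cell gene Prss53 in 99.1%. These shares were set against those of 165 endothelial barcodes of the same library, which should lack the genes and had a median of 6901 UMIs against 32388. After each cell was thinned to 2000 UMIs outside the islet hormones, Ucn3 was seen in 61.2% of members and in 0 of 160 endothelial cells. A floor of 3 endothelial cells would give 1.88%. G6pc2 was seen in 77.4% and 1.88%. Mafa was seen in 73.8% and 1.88%, and Prss53 in 72.8% and 1.88%. All 4 markers therefore stood above the endothelial cells, and the cells are called β cells below. Markers of other tissues were near 0: the 10 non-endocrine lists together took a median of 0.0225% of a member's UMIs, at most 0.940%, and 35 members had 0.1% or more. The T cell genes Cd3e and Cd3g, the macrophage gene Adgre1, the B cell gene Ms4a1 and the Schwann cell genes Sox10 and Ngfr had no UMI in any member. Other genes of these lists were detected. Over all members the macrophage list had 2666 UMIs, the B cell list 769, the Schwann cell list 172 and the T cell list 4. Most UMIs of the macrophage and B cell lists came from C1qa and Cd79a, which are described in the last section. No doublet caller was run, and the limits on Gcg, Sst, Ppy and Pyy remove only pairs with other islet hormone cells.

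Insulin transcripts were the majority of what was captured. Ins1 and Ins2 took from 40.01% to 73.4% of UMIs with a median of 61.0% (10th to 90th percentile 53.0 to 66.8%). Summed over members, Ins2 gave 44.0% of UMIs and Ins1 17.5%, 2.51 UMIs of Ins2 for each of Ins1. The 2 genes encode close paralogs, so reads near their shared sequence could be split between them by the counting. The Ins1 share of insulin UMIs had a median of 28.2% over cells, a range of 8.69 to 51.6% and a standard deviation of 3.17 percentage points, of which 2.65 points remained beyond counting error. Cells therefore differed in the balance of the 2 insulin genes by more than the depth of each cell allows from counting alone.

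All other values are shares of the 23071213 UMIs outside Ins1 and Ins2. The kit counts 1 tag per transcript near its 3' end, so counts were not divided by gene length. Outside insulin, 1 gene stood far above the rest. Iapp, which encodes amylin, the peptide co-secreted with insulin, took 1132 of every 10000 UMIs (interval 1130 to 1133). It ranged over cells from 245 to 2584 with a median of 1073, and no member lacked it. Of the other genes, mt-Co3, a mitochondrially encoded subunit of cytochrome c oxidase, had 187 per 10000. The most abundant nuclear gene after Iapp was Chga (chromogranin A, a granule protein) at 123, with a range over cells of 25.1 to 498 and a median of 117. The lowest Iapp share of any cell was thus above the median of Chga. The 10 most abundant genes held 23.1% of the UMIs outside insulin, the 100 most abundant 38.8% and the 1000 most abundant 66.8%. In all, 17192 genes had at least 1 UMI, 2281 reached a mean of 1 per cell, and 83 were found in every cell.

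The promoters of Ins1 and Iapp, genes of abundant secreted products, are shown because the insulin and amylin genes share activators of the PDX1 and NEUROD1 type. The sequences are the 250 bases before the RefSeq start in GRCm38.p6, 5' to 3' on the gene's strand, for Ins1 at chr19:52264047-52264296 (+) and Iapp at chr6:142298175-142298424 (+). Capitals mark TAAT, the core of the A boxes bound by homeodomain factors, and CATCTG, the E box of insulin genes, on either strand, and neighbouring matches may overlap.
Ins1: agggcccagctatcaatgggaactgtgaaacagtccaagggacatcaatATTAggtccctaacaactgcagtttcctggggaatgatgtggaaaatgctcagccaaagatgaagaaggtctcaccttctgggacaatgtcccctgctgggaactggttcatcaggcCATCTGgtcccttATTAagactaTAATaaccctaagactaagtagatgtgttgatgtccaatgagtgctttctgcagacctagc
Iapp: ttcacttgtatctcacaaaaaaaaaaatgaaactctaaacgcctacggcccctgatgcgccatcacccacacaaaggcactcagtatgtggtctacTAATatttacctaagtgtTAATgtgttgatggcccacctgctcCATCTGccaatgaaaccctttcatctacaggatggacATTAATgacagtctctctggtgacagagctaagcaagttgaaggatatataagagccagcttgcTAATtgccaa
The Ins1 window held 3 TAAT matches and 1 CATCTG, which began 84 bases before the start. The Iapp window held 5 TAAT matches, of which 2 overlap on opposite strands, and 1 CATCTG that began 111 bases before the start. Of 32851 RefSeq windows of the same length, 54.9% held TAAT and 14.4% held CATCTG, so the first motif is common and the second less so. A match is a string of letters and not a measured site.

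Granule cargo, a list of 13 genes, made up 13.7% of UMIs outside insulin, and the 7 genes of prohormone processing 1.17%. Together they made up 14.9%, with a median cell at 14.5% and a range of 4.51 to 28.9%, and without Iapp 3.57%. After Iapp and Chga the most abundant cargo was Scg2 (secretogranin II) at 43.9 per 10000, Resp18 (a secretory granule protein) at 24.3, Scg3 at 14.0 and Chgb at 12.7. Slc30a8, the transporter that loads granules with zinc, had 9.08 per 10000, and the granin Vgf only 0.157. Among processing genes, Pcsk1n, an inhibitor of the convertase PC1/3, had 34.5 per 10000, Pcsk2 (convertase PC2) 27.4, Cpe (carboxypeptidase E) 19.8, Ero1b (an oxidase that drives disulfide bonds in the ER) 16.4, and Pcsk1, which encodes PC1/3 itself, 3.72. These are tag counts per cell and not protein.

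**Figure D1:**
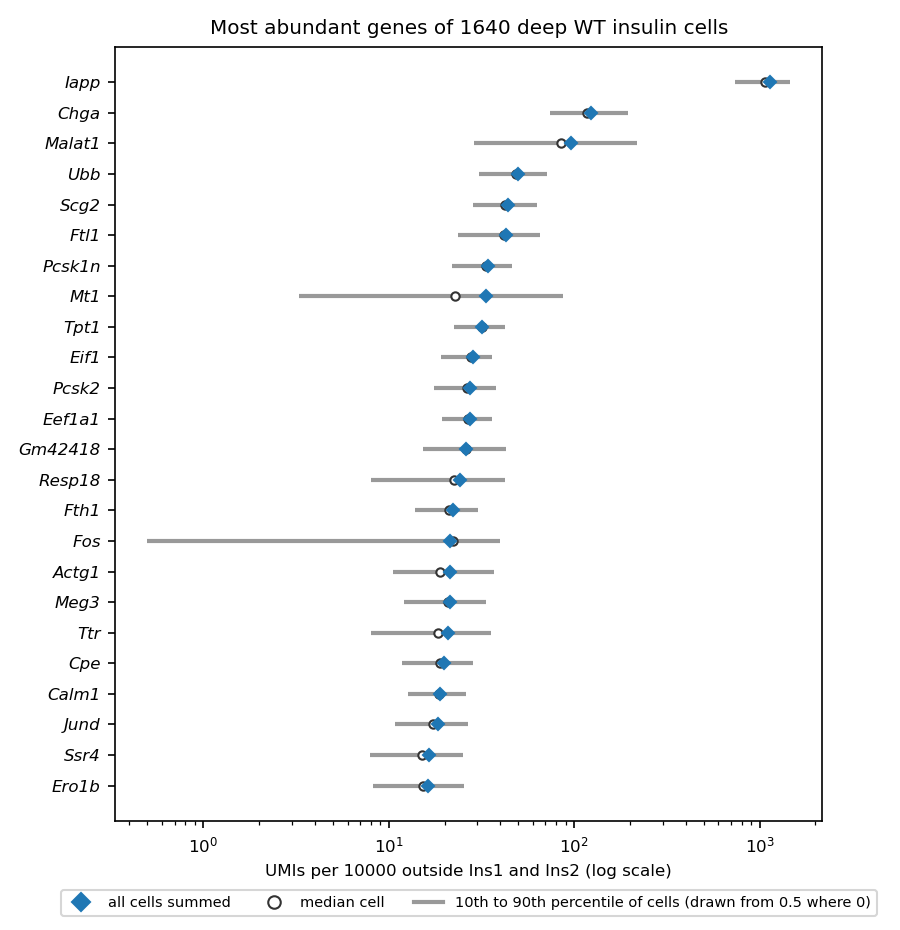
24 of the 25 most abundant genes outside Ins1, Ins2, mitochondrially encoded and ribosomal protein genes, in UMIs per 10000 outside insulin on a log axis; diamonds give all 1640 cells summed, circles the median cell and bars the 10th to 90th percentile of cells. Iapp (1132) stands apart from Chga (123), and the bars of Mt1 (3.27 to 87.6) and Fos (0 to 39.98) are the widest.

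The other abundant genes were of 3 kinds. Housekeeping genes of protein synthesis and turnover included Ubb (a ubiquitin gene) at 50.01 per 10000, Tpt1 at 31.8, Eif1 at 28.4, and Eef1a1 (the elongation factor) at 27.3, with the ferritin genes Ftl1 at 43.0 and Fth1 at 22.1. Nuclear RNAs included Malat1 at 96.4 and Meg3 at 21.3. Gm42418 had 26.0, but it overlaps ribosomal RNA sequence and its tags are uncertain. Stress-inducible genes were the last kind: the metallothionein gene Mt1 (a zinc and copper binding protein) at 33.5, Fos at 21.4 and Jund at 18.4. Mitochondrially encoded genes took 10.3% of UMIs outside insulin (median cell 9.61%), and 94 cytosolic ribosomal protein genes 8.84%.

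Identity transcription factors were all detected, at very different levels in tags. The 19 listed genes took 0.305% of UMIs outside insulin, with Mafa at 8.11 per 10000, Nkx6-1 at 4.27, Pax6 at 2.56, Insm1 at 2.52, Neurod1 at 2.32 and Pdx1 at 1.88. At the other end was Esrrg, an orphan nuclear receptor, at 0.044. Glucose entry and excitability genes took 0.287%. G6pc2 had 8.38 per 10000, the glucose transporter gene Slc2a2 (GLUT2) 5.14, the sulfonylurea receptor gene Abcc8 5.13, and the calcium-activated channel gene Trpm5 3.31, whereas the channel pore gene Kcnj11 had 0.471 and the incretin receptor gene Glp1r 0.058 against 0.676 for Gipr. The genes of the 2 subunits of the ATP-sensitive potassium channel, Abcc8 and Kcnj11, were thus unequal in tags. Among 13 exocytosis genes Syt13 was highest at 5.51 per 10000 and the syntaxin gene Stx1a lowest at 0.051.

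The list of genes kept low in β cells was low here as well. Its 20 genes had 886 UMIs in all 1640 cells, 0.0038% of UMIs outside insulin. Ldha (lactate dehydrogenase A) had 27 UMIs, Slc16a1 (the lactate and pyruvate carrier MCT1) 2, the hexokinase gene Hk1 4 and the repressor gene Rest 7, and Hk2, Acot7 and Maf had none. Per 10000 UMIs outside islet hormones Ldha was at 0.012 in members and 4.19 in endothelial cells. Zyx (458 UMIs) and Lmo4 (132) were the only members of the list above 0.05 per 10000. Another list, of 12 peptide and minor hormone genes that does not hold Pdyn, had 324 UMIs, of which Npy had 118 in 10 cells, Cartpt 118 in 58 cells, Ghrl 32 and Gast 27. Cck (cholecystokinin) had 2 UMIs, in 2 cells. Proliferation genes had 261 UMIs over 10 genes, and Mki67 was detected in 17 cells (1.04%).

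To show which of these transcripts set β cells apart from the most similar cells of the same library, members were compared with 47 glucagon barcodes (at least 5000 UMIs, Gcg at least 5% of UMIs and above insulin). These had a median of 10443 UMIs, and Gcg took 31.9% of them. Shares were computed outside Ins1, Ins2, Gcg, Sst, Ppy and Pyy, and a gene was counted when it differed over 2-fold. Of 3909 genes compared, 417 (10.7%) were over 2-fold higher in members and 379 (9.7%) over 2-fold lower, with a median log2 ratio of -0.08. The glucagon class was small and pooled from the same mice, and no test was made.

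Members were over 2-fold higher in most of the listed identity factors and ER folding genes that could be compared. Of the 11 identity factors compared 6 were over 2-fold higher and 0 lower (median log2 ratio 1.02), of 19 ER genes 11 and 0 (1.05), of 11 granule cargo genes 4 and 1, of 11 glucose entry and excitability genes 5 and 0, and of 11 exocytosis genes 3 and 0. Iapp had a log2 ratio of 6.01 (interval 5.89 to 6.13). The 10 highest ratios were those of Prlr (the prolactin receptor) at 7.79, Prss53 at 6.96, Trpm5 at 6.78, Cox6a2 (a tissue-restricted subunit of cytochrome c oxidase) at 6.69, G6pc2 at 6.54, Mafa at 6.49, Bace2 (a membrane protease) at 6.45, Slc2a2 at 6.42, Tmem215 at 6.34 and Nkx6-1 at 6.15. Each of these rested on 1 to 3 UMIs in all glucagon barcodes, so the intervals are wide, 5.31 to 13.1 for Prlr and 4.94 to 8.77 for Mafa. Pcsk1 had 8590 UMIs in members and 0 in the glucagon barcodes, a log2 ratio of 5.37 at a floor of 3 UMIs over the class, and the granule docking gene Sytl4 likewise 4.53. Ero1b, with 30 glucagon UMIs, had 4.18 (3.67 to 4.75).

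Many genes thought of as β cell genes did not separate the classes. Abcc8 had a log2 ratio of -0.01 (interval -0.23 to 0.21), Slc30a8 0.22 (0.04 to 0.40), Nkx2-2 0.28 (-0.17 to 0.77) and Neurod1 0.31 (-0.05 to 0.70), all within the 2-fold limit. Chga, at 0.68, was within it too. Processing genes split in both directions: Pcsk1 and Ero1b were over 2-fold higher, Pcsk1n (-1.35) and Pcsk2 (-1.05) over 2-fold lower, and the median of the 7 was -0.79. Resp18 was lower as well (-1.60). Among the 10 lowest ratios were those of Eef1a2 (-9.79), Edn3 (-9.70), Irx1 (-9.68), Higd1a (-8.83), Basp1 (-8.08), Rcn3 (-8.06) and Adamts18 (-7.85). Pdk4, a kinase that restrains pyruvate oxidation, had 18 glucagon UMIs and 0 in members. Its log2 ratio was -8.70 at a floor of 3 UMIs over the members, with an upper limit of -8.25. Ttr (transthyretin), although 21.0 per 10000 in members, had -4.23.

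**Figure D2:**
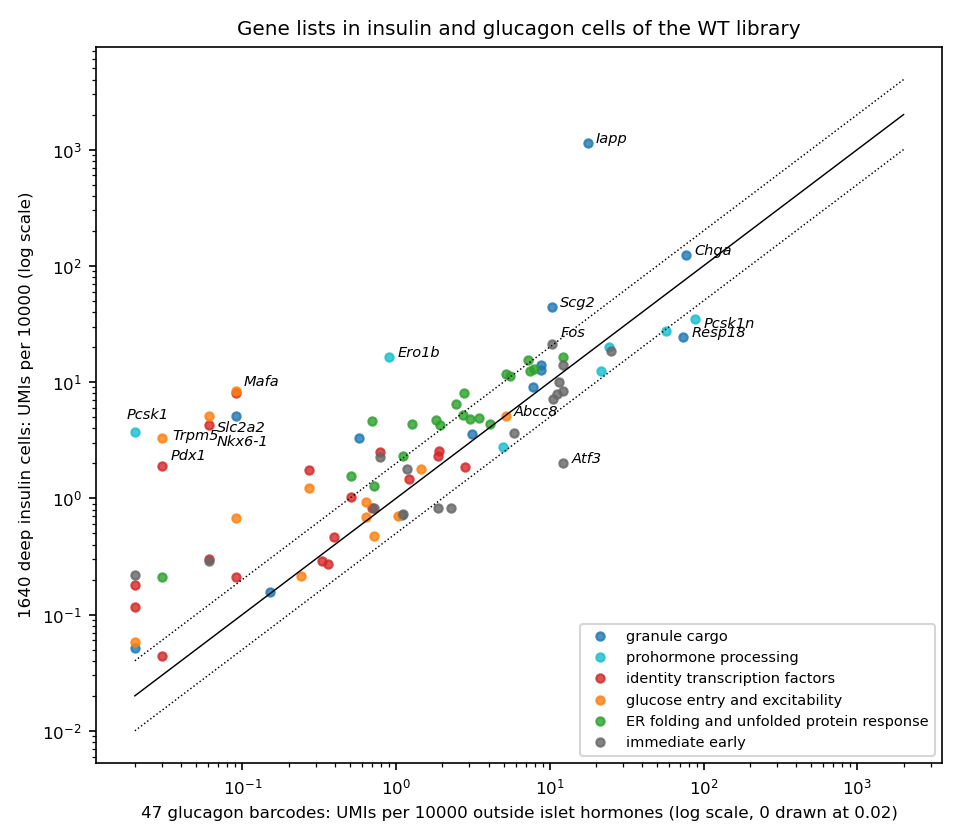
Members of 6 gene lists in 1640 deep insulin cells (vertical axis) and 47 glucagon barcodes (horizontal axis), each point a gene, in UMIs per 10000 on log axes; insulin and the other islet hormones are left out of the horizontal scale, the solid line marks equal levels and the dotted lines 2-fold differences. Iapp (log2 ratio 6.01), Mafa, Slc2a2 and Nkx6-1 lie far above the lines, Abcc8 between them, and Resp18 (-1.60) and Atf3 (-2.61) below.

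How β cells differed from each other was measured by an excess coefficient of variation (CV), the spread of a gene's share over cells left after the part that counting alone gives. Of 2281 genes with a mean of at least 1 UMI per member 112 (4.91%) had an excess CV of at least 0.5, and the median gene had 0.214. Genes of basic function were steady: Eef1a1 had 0.153, and the median of the ribosomal protein genes was 0.171. Iapp had 0.258 and Chga 0.365, and none of the 11 identity factors measured reached 0.5 (Mafa 0.466, Pdx1 0.272). Of the granule and processing genes only Nucb2 (0.53) did, out of 18. Of the 15 immediate early genes measured 13 did, and 2 of 19 ER folding genes, Creld2 (0.73) and Sdf2l1 (0.63). Of the lists with at least 5 genes measured, the immediate early list was the one whose members varied most often.

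The largest excess CVs belonged to the other islet hormones, Gcg (10.1), Sst (6.35), Pyy (5.06) and Ppy (4.95), whose range the rule itself caps. Sst shows the form of it: 1150 members had none, 47 had 5 or more UMIs, and 17 cells held 61.5% of the Sst UMIs. Next came the inducible heat shock gene Hspa1a (3.33), with 1196 cells at 0 and 95 with 5 or more. Gsn (gelsolin, 2.79) owed its place to 1 cell with 130 UMIs, since the next had 7. Other genes among the 15 most uneven were the exocrine transcripts Ctrb1 (1.89) and Prss2 (1.499), the cell cycle inhibitor gene Cdkn1a (1.62), the chaperone genes Dnajb1 (1.60) and Clu (1.39), and Atf3 (1.39), an inducible transcription factor. Free RNA is a limit for the 2 exocrine genes: in cells thinned to 2000 UMIs Ctrb1 was seen in 20.4% of members and in 39.4% of endothelial cells, and Prss2 in 15.7% of members and in 56 of 160 endothelial cells.

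**Figure D3:**
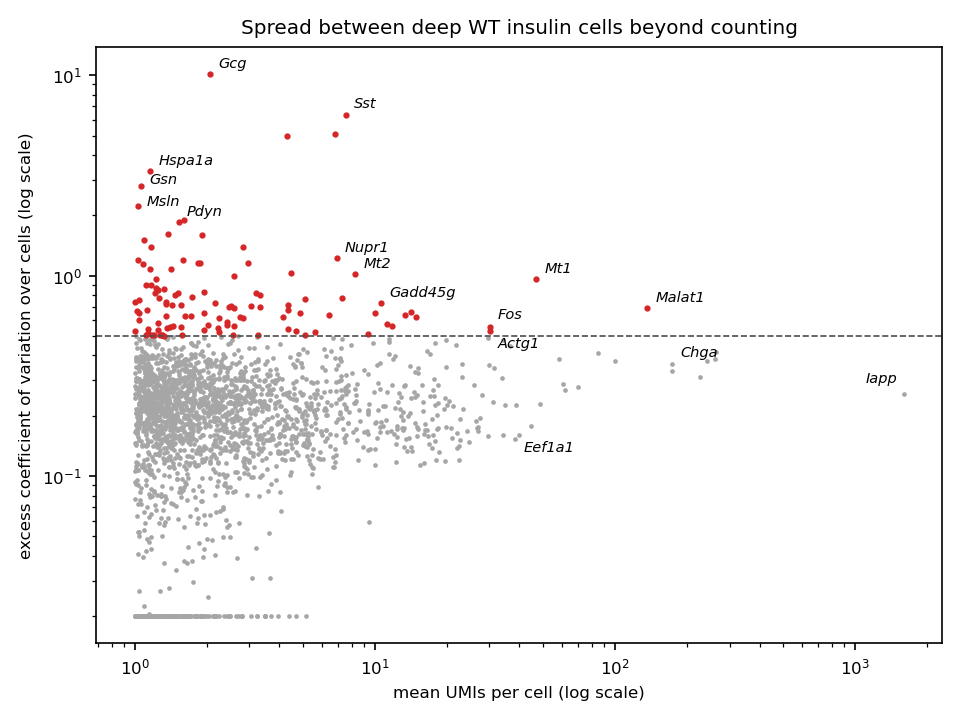
Excess CV over cells (vertical axis, values under 0.02 drawn at 0.02) against mean UMIs per cell (horizontal axis) for 2281 genes, both on log axes, with 1 point per gene and a line at 0.5. Hormones and Hspa1a lie at the top left, whereas abundant genes such as Iapp (0.258) and Eef1a1 (0.153) lie under the line.

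Msln, Pdyn and Nupr1 were each absent from many β cells and strong in some. Msln (mesothelin, a surface glycoprotein) had an excess CV of 2.22, with 1295 cells at 0 (79.0%), 152 with 5 or more UMIs and at most 27. Pdyn (the precursor of dynorphin peptides) had 1.85, with 990 cells at 0 (60.4%), 163 with 5 or more and at most 45. Nupr1 (a stress-inducible nuclear protein) had 1.22, with 525 cells at 0 (32.0%), 432 with 10 or more and at most 95. The glucagon barcodes held 0 UMIs of Msln, 0 of Pdyn and 3 of Nupr1. At a floor of 3 UMIs the log2 ratios of Msln and Pdyn were 3.02 and 3.58, with lower limits of 2.72 and 3.28. Nupr1 had 5.77 (interval 4.22 to 8.05). In all, 13 cells had 5 or more of both Msln and Pdyn, 8.55% of the Msln set and 7.98% of the Pdyn set, where these sets were 9.27 and 9.94% of all members. The Nupr1 set, 26.3% of members, shared 51 cells with the Msln set (33.6% of that set) and 47 with the Pdyn set (28.8%).

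These sets, chosen after the values were seen, differed in what else their cells contained. Cells with 5 or more Pdyn UMIs had a median of 47677 UMIs, a median insulin share of 63.6% and a median ER folding share of 1.64% (1.18% where Pdyn was 0). Cells without Pdyn had 27527 UMIs and 59.9% insulin, so Pdyn went with depth, which raises the chance of reaching 5 UMIs. Cells with 10 or more Nupr1 UMIs were deeper as well (41294 against 28678 UMIs) yet lower in insulin (60.6 against 62.6%), in ER folding share (1.19 against 1.54%) and in Chga (107 against 145 per 10000). Cells with 5 or more Msln UMIs were close to those without in insulin share (60.2 and 61.1%), and among 111 other variable genes the highest rank correlation of Msln was 0.06 (Fdps, 1639 cells). Most members had no Msln UMI, and these correlations used cells thinned to fewer UMIs. A low value therefore does not show that Msln lacks a partner among the variable genes.

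Variable genes that moved together formed 1 group of at least 4. When shares were correlated over 1639 cells thinned to 5000 UMIs outside insulin, Fos, Egr1, Jun, Junb, Btg2, Ier2, Dusp1, Rasd1 and C2cd4b had a mean pairwise Spearman correlation of 0.40 (0.25 to 0.59). Smaller groups were Mt1 and Mt2 with the actin gene Actg1 (0.52), the secretory pathway genes Nucb2, Fkbp11 and Sdf2l1 (0.35), and Atf5 with Nupr1 (0.33). The remaining 95 genes joined no group, and of 6216 pairs 51 were above 0.3 and 9 below -0.3. The strongest pair was Mt1 with Mt2 (0.79), and the pair of Mt1 with Fos was negative (-0.39). Points of these correlations are cells of 1 library that share a denominator, so they are descriptions without a p-value.

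The promoters of 4 of these genes are shown because the members of each group moved together: Fos at chr12:85473640-85473889 (+), Btg2 at chr1:134079156-134079405 (-), Mt1 at chr8:94178839-94179088 (+) and Mt2 at chr8:94172368-94172617 (+). They are again the 250 bases before the RefSeq start in GRCm38.p6. In Fos and Btg2 capitals mark TGACG, the core of the cyclic AMP response element. In Mt1 and Mt2 they mark TGCACNC or TGCGCNC, the core of the metal response element, on either strand.
Fos: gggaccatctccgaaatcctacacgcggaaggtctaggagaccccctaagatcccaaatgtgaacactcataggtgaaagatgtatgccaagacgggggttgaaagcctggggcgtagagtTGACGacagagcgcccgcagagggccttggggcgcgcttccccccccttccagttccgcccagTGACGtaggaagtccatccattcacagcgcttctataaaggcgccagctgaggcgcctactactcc
Btg2: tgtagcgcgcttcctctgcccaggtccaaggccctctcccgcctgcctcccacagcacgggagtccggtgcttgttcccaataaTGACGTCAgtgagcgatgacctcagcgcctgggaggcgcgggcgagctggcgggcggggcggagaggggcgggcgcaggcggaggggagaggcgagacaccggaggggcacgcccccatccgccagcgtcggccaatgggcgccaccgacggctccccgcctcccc
Mt1: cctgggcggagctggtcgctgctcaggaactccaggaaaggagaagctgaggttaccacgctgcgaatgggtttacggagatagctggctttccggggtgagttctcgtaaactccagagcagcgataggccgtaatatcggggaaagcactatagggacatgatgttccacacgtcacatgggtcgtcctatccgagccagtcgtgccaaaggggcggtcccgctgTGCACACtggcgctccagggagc
Mt2: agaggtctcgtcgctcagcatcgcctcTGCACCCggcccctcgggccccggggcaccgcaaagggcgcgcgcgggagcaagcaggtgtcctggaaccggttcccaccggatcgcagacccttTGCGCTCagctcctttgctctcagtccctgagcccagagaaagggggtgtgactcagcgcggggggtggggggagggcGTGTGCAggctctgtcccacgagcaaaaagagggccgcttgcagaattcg
Fos had 2 TGACG matches, 129 and 66 bases before the start, and Btg2 had 2 that overlap on opposite strands as TGACGTCA. TGACG was also found in the windows of Junb and Dusp1, but not in those of Jun and C2cd4b, and 17.8% of all windows held it. The Mt1 window also held TGACG, 77 bases before the start. Mt1 had 1 match to the metal response core and Mt2 had 3, and 21.4% of all windows held one. The metal response core was also found in the windows of Jun, Btg2 and Junb, so neither motif was limited to its own group. The motifs are described and were not measured for binding.

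Immediate early genes, which cells switch on within minutes of a stimulus, took 1.01% of UMIs outside insulin, with a median cell at 1.01% and a range of 0.045 to 3.33%. Fos had a median of 22.3 per 10000 and a highest value of 69.1, and it was missing from 169 cells (10.3%), so most β cells of this library carried Fos and a minority carried none. This was not particular to β cells. In cells thinned to 2000 UMIs Fos was seen in 81.5% of members, 85.1% of glucagon barcodes and 80.6% of endothelial cells. Outside islet hormones the immediate early list was at 101, 119 and 297 per 10000 in these classes. Cells without Fos had a median of 23630 UMIs against 33807, an insulin share of 56.9% against 61.4%, and a metallothionein share of 1.10% against 0.234%. In them Egr1 was at 0.417 per 10000 against 9.10, whereas Jund was at 26.0 against 17.8. Islets were dispersed before capture, and immediate early levels in intact islets were not measured.

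A plot of the immediate early share against the share of Mt1 and Mt2 showed a cloud of cells at low immediate early and high metallothionein shares. Metallothioneins took 0.393% of UMIs outside insulin, a median of 0.265%, with a 10th percentile of 0.038% and a 90th of 1.04%, 27.7 times the 10th. Mt1 had a lowest value of 0, a median of 22.8 and a highest of 203 per 10000. Cells with at least 0.5% metallothionein and under 0.7% immediate early UMIs numbered 277 (16.9% of members), limits that were set after the values were seen. Of cells high in metallothioneins, 88 had an immediate early share of 0.3 to 0.4%, 23 of 0.6 to 0.7% and 18 of 0.7 to 0.8%. Of cells low in immediate early genes, 22 had a metallothionein share of 0.4 to 0.5% and 16 of 0.5 to 0.6%. A further 148 members were above the metallothionein limit only and 137 below the immediate early limit only, and cells lay on both sides of each limit. These 277 cells had a median of 25052 UMIs against 33859 in the other 1363 members, 57.3% insulin against 61.8%, and a median of 3672 genes against 3837. They were 26.9% of the 546 members with the fewest UMIs and 10.3% of the 546 with the most. Non-endocrine markers took a median of 0.0327% of UMIs in them and 0.0211% in the other members. In insulin cells of 5000 to 15000 UMIs 30 of 124 (24.2%) met the same limits, and in glucagon barcodes 1 of 47. In endothelial cells 0 of 165 did, which allows a share of up to 2.21%. The limits were set on members, and the median endothelial cell had 2.72% immediate early and 0% metallothionein UMIs.

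**Figure D4:**
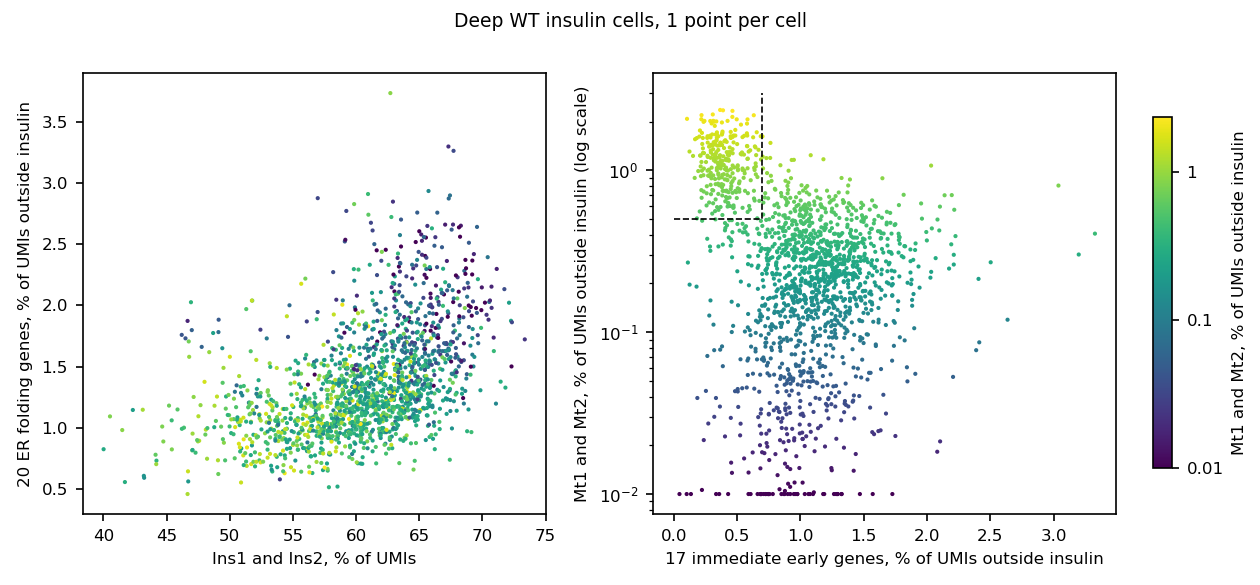
Each point is 1 of 1640 cells. Left, the share of 20 ER folding genes against the insulin share; right, the share of Mt1 and Mt2 (log axis, values under 0.01 drawn at 0.01) against that of 17 immediate early genes, with dashed lines around the 277 cells; colour gives the metallothionein share in both panels, which is high at low insulin and at the upper left.

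Outside the genes used to choose them, these cells carried more transcripts of sterol synthesis and of the cytoskeleton and cell junctions. Of 2281 genes 79 (3.46%) were over 1.5-fold higher and 65 (2.85%) over 1.5-fold lower in them, and the median gene had a log2 ratio of 0.03. After Mt2 (2.26) and Mt1 (2.13), the highest log2 ratios were those of the transcription factor gene Ets2 (1.35), the lipid kinase gene Pi4k2a (1.33) and Tacc2 (1.31). Hmgcs1 (HMG-CoA synthase) had 2.72 per 10000 against 1.15, Fdps (farnesyl diphosphate synthase) 3.14 against 1.46, and Cyp51 1.29 against 0.648, all steps of cholesterol synthesis. Pmvk (1.41 against 0.703) and Msmo1 (3.04 against 1.72) of the same pathway were higher too. Insig1 (2.37 against 1.27), a regulator and not an enzyme of that pathway, was higher as well. The keratin gene Krt8 had 16.9 per 10000 against 8.16, Lmna (lamin A) 6.21 against 3.16, Actg1 a log2 ratio of 0.89, the claudin genes Cldn3 and Cldn7 log2 ratios of 1.07 and 0.99, and Srf, the factor that drives actin genes, 1.10. Of these, Actg1, Insig1 and Msmo1 were picked after the values were seen, and the others were among the 25 highest ratios.

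The lower side was led by immediate early genes, which chose the cells, and by other inducible genes. Fos had a log2 ratio of -3.97 and Egr1 -3.28, as description. Outside the list, Rasd1 was at -3.10, Socs3 at -2.61, C2cd4b at -2.32, Npas4 (a calcium-activated transcription factor) at -2.05 and Irs2 (an insulin receptor substrate) at -1.98. Of 11 identity factors 4 were over 1.5-fold lower and 0 higher (median -0.27), among them Isl1 (1.13 against 1.97 per 10000), Nkx6-1 (2.66 against 4.56) and Mafa (5.65 against 8.55). Slc2a2 was at 3.33 against 5.46, Ucn3 at 3.55 against 5.34 and the vesicle gene Rab3a at 0.968 against 2.04, whereas G6pc2 (7.20 against 8.59) and Iapp (1009 against 1154) differed by less than 1.5-fold. As a list, granule cargo took 12.2% of UMIs outside insulin in these cells against 14.0% in the other members. Glucose entry and excitability genes took 0.252 against 0.294%, and exocytosis genes 0.209 against 0.214%. Over all genes compared 2.85% were over 1.5-fold lower, with a median log2 ratio of 0.03. Of 7 glucose entry and excitability genes 2 were over 1.5-fold lower and 1 higher (median -0.23). Of 11 granule cargo genes 2 were lower and 0 higher (median -0.24), and of 10 exocytosis genes 1 and 0 (median 0.02). Within the 546 members with the fewest UMIs the log2 ratios of Mafa, Nkx6-1, Hmgcs1 and Krt8 were -0.57, -0.76, 1.06 and 1.196, and within the 546 with the most -0.49, -0.67, 1.19 and 0.95. Whether these cells came from 1 mouse of the pool cannot be told from the files.

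Across all members the insulin share was correlated with the share of the ER folding list, which is a description because the rule used the insulin share. Its 20 genes took 1.37% of UMIs outside insulin, a median of 1.28% and a range of 0.461 to 3.73%, led by Ssr4 (a subunit of the translocon complex) at 16.4 per 10000, the chaperone genes Hspa5 (BiP) at 15.5 and Hsp90b1 at 12.5, and the secreted ER stress factor gene Manf at 11.7. Over 1640 cells the insulin share and the ER folding share had a Spearman correlation of 0.53, and within the 546 members with the fewest UMIs and the 546 with the most 0.41 and 0.37. The denominator of the ER share leaves out insulin, and both are shares of the same cell. Granule genes without Iapp went with insulin in the same way (0.49, and 0.51 and 0.36 within these depth classes), and so did the Ins1 share of insulin UMIs (0.40, 0.39 and 0.26).

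Metallothioneins and mitochondrial transcripts went the other way. With the insulin share, metallothioneins had a correlation of -0.50 (-0.32 and -0.41 within the 2 depth classes) and mitochondrially encoded genes -0.42 (-0.40 and -0.20). With the ER folding share they had -0.52 (-0.28 and -0.57) and -0.57 (-0.55 and -0.46). In single genes, the 164 members with the highest insulin share had Mafa at 10.04 per 10000 against 5.34 in the 164 with the lowest, Slc2a2 at 5.74 against 3.47, Pcsk1 at 5.13 against 2.45, Sdf2l1 (an ER chaperone cofactor gene) at 7.17 against 2.84, and Mt1 at 12.2 against 56.1. Their median depths were 37919 and 19852 UMIs. The rule used both the insulin share and the depth, so these values are a description that supports nothing further, and the part of depth was not tested.

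**Figure D5:**
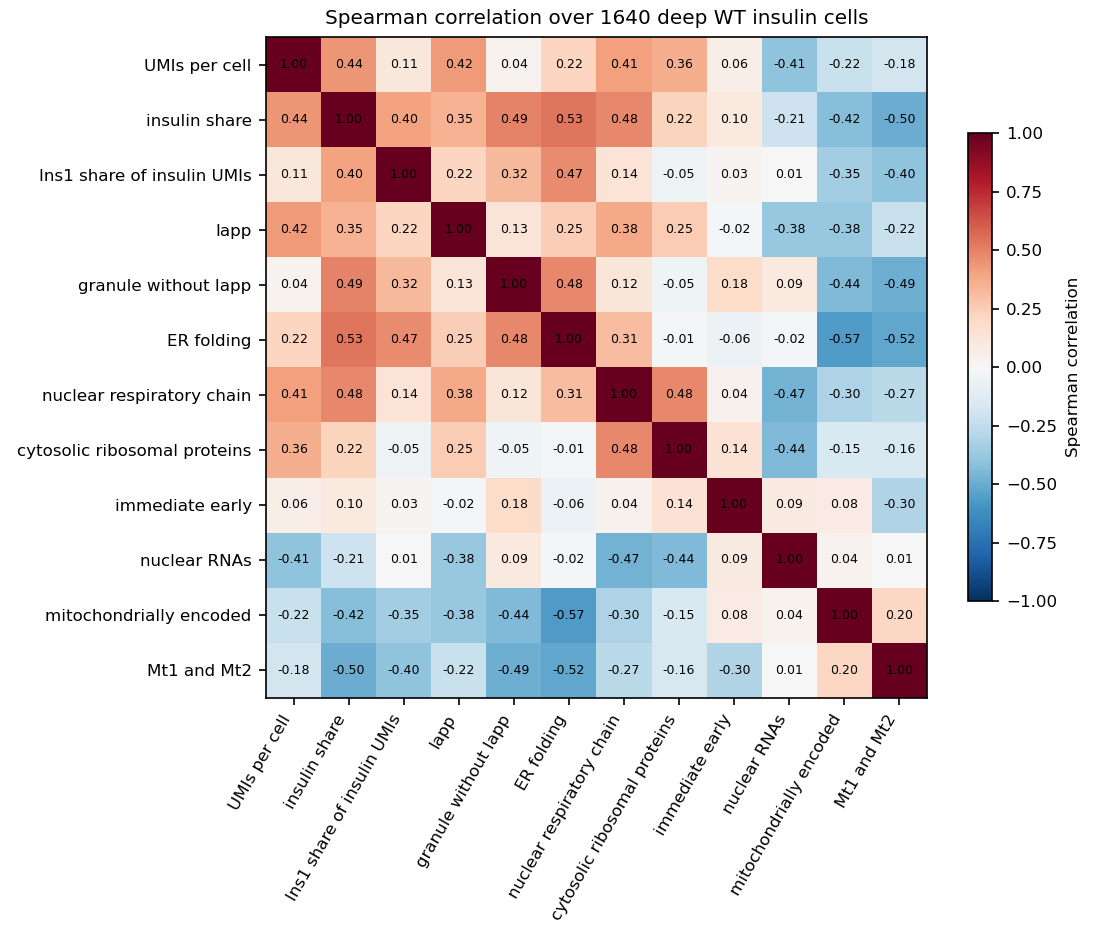
Spearman correlations over 1640 cells between UMIs per cell, the insulin share and the shares of gene lists among UMIs outside insulin, as a colour grid with the values written in. The insulin share is positive with the ER folding share (0.53) and negative with metallothioneins (-0.50).

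Few genes differed over 1.5-fold with depth. Between the 546 members with the most UMIs (40975 to 131907) and the 546 with the fewest (15003 to 26174), 12 of 2281 genes (0.526%) were over 1.5-fold higher and 11 (0.482%) over 1.5-fold lower. Of the 12, Sst, Pyy, Gcg and Ppy are capped by the rule, and the next were Pdyn (log2 ratio 1.54), Fkbp11 (0.78), Dapl1 (0.74) and Vkorc1 (0.64). The lower genes included Prss2 (-1.36), the ribosomal RNA-like AY036118 (-1.33), Ctrb1 (-1.29), Mt2 (-1.003), Malat1 (-0.93), Gsn (-0.89), Gm42418 (-0.73) and mt-Co3 (-0.69). The median insulin share was 62.9% in the deeper of these classes and 57.8% in the shallower. As lists, mitochondrially encoded genes had a median log2 ratio of -0.43 and nuclear RNAs -0.53. Cytosolic ribosomal protein genes had 0.19.

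The 124 insulin cells just under the limit, with 5000 to 15000 UMIs and a median of 11170, had less Iapp and more nuclear and mitochondrial RNA than members, with no test between them. Of UMIs outside islet hormones, granule cargo took 11.4% in them and 13.7% in members, Iapp 8.99 and 11.3%, and ER folding genes 1.13 and 1.38%. Granule cargo without Iapp took 2.36 and 2.40%, so the cargo difference was that of Iapp. Nuclear RNAs took 2.21 and 1.52%, mitochondrially encoded genes 12.2 and 10.3% and Mt1 0.502 and 0.335%. Identity factors were at 0.294 and 0.305%. The ER folding, mitochondrial and metallothionein differences had the direction seen in members of low insulin share.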

How the data were processed

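Islets of wild-type mice were measured in 1 single-cell library of 4 pooled mice, and a second library from mice on a high-fat diet was read only for its barcodes. The authors deposited raw UMI counts per gene and barcode, for which the submitters' processing notes name Cell Ranger 3.0.2 and genome build mm10. No column was left unmapped. Barcodes above the study's maximum of 15000 UMIs were present, so its later filters were not yet applied.

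Counts were read with Python 3.11.15, NumPy 2.4.6, SciPy 1.17.1 and pandas 2.3.3. The limits, gene lists and sets of cells were chosen with earlier results of these data known. Levels are UMIs per 10000 or percent of UMIs outside Ins1 and Ins2, and in comparisons between classes outside Gcg, Sst, Ppy and Pyy too. Intervals are exact Poisson or Clopper-Pearson limits (95%), and a class at 0 was set to a floor of 3 UMIs. Excess CV is the square root of the squared deviations from depth times the pooled share, less the Poisson part, over the squared expectations, for genes with a mean of at least 1 UMI. No model was fitted across genes and no p-value was computed, since cells of 1 library are not replicates. Total counts per member set the precision and ranged from 15003 to 131907 UMIs. The computation of excess CV and of ratios between classes was tested on simulated data, and that of correlations was not.

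Named genes were the 25 with the highest share outside insulin, mitochondrially encoded and ribosomal protein genes, the 15 with the largest excess CV, the 10 highest and 10 lowest ratios to glucagon barcodes, the 8 highest and 8 lowest between the deepest and the shallowest 546 members, and members of 15 lists. Genes named for the metallothionein-high cells, and genes named outside these rules, were chosen after their values were seen. Some genes that the rules select are not reported here. Ero1b is listed under its older symbol Ero1lb, and the S6 kinase genes and Rps19bp1 were left out of the ribosomal list. Promoter sequences of 10 genes were matched by symbol in a RefSeq table (GRCm38.p6). Alternatives changed the UMI minimum, the mitochondrial, insulin and hormone limits, the gene minimum, the weighting of cells and the depth, and left out the deepest 10% of members or members with non-endocrine markers.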

Additional observations from a re-analysis of the deposited data

How the results depend on the processing

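The granule cargo and processing share of 14.9% moved little but by more than its counting interval: 14.8% with a minimum of 10000 UMIs, 15.3% with 25000, 14.99% with at most 10% mitochondrial UMIs, 15.01% with at least 50% insulin, 14.8% with other hormones under 0.2%, 14.4% without the deepest 10% of members, 14.95% without members of 0.1% or more non-endocrine markers, 16.6% without mitochondrially encoded genes and 14.5% as a mean over cells. The 112 genes with an excess CV of at least 0.5 became 51 after thinning to 5000 UMIs and 734 with a mean of at least 0.2 UMI. For the deepest 546 members, the 12 higher genes became 5 with a minimum of 25000 UMIs, 7 with at most 10% mitochondrial UMIs and 34 with a mean of at least 0.2, and the 11 lower genes became 5, 6 (without the deepest 10%) and 75. Against glucagon barcodes, 417 higher and 379 lower genes became 102 and 112 with at least 2 UMIs per 10000 in either class, and 783 were lower when only the 6 glucagon barcodes with at least 15000 UMIs were used. No value changed sign, and the cause of these moves was not tested beyond the number of genes or cells each alternative keeps. All 200 recomputed ratios of named genes to glucagon barcodes kept their direction and their side of the 2-fold limit. Of 150 recomputed excess CVs of named genes 5 fell below 0.5, those of Gsn (0.384 with a minimum of 25000 UMIs), Gcg and Clu among them. The 47 glucagon barcodes held 331736 UMIs outside hormones and gave 0 to 3 counts for the named genes with the highest ratios. No paired analysis was possible because there was 1 library per group.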

Other observations

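The interferon-inducible genes Ifit1, Rsad2, Cxcl10, Rtp4 and Oasl2 were detected in a larger share of the metallothionein-high, immediate early-low cells than of other members. They were picked after their values were seen, and interferon-inducible genes were not tested as a group. Ifit1, an antiviral RNA-binding protein gene, had 968 UMIs, 665 of them in those 277 cells, where 52.3% of cells had one against 8.29% of the other members. Rsad2 (viperin) had 849 UMIs and was detected in 43.7% and 18.7% of the cells, and the chemokine gene Cxcl10 had 759 UMIs in 22.7% and 4.04%. Rtp4 (38.6 and 7.56%) and Oasl2 (34.3 and 6.90%) had the same direction. The median depths of the 277 cells and the other members were 25052 and 33859 UMIs. Trib3, a stress-inducible pseudokinase gene, had 0.521 per 10000 in them against 0.156, whereas Ddit3 (2.44 against 2.28) and Hspa5 (14.98 against 15.6) were close.

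Some genes that usually mark immune cells were found alone in β cells. C1qa, a complement gene of macrophages, had 2556 UMIs in 65.8% of members, but C1qb had 11 and C1qc 2. After thinning it was seen in 17.5% of members, 8 of 47 glucagon barcodes and 1 of 160 endothelial cells. Cd79a, part of the B cell receptor, had 767 UMIs in 25.5% of members (7.07% after thinning, 0 endothelial cells), while Cd79b had 2. In glucagon barcodes it had no UMI.

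Genes used elsewhere to divide β cells were mostly scarce. Of the 16 genes Th, the first enzyme of dopamine synthesis, was detected in 25.7% of members, but only 10 cells had 5 or more UMIs. Cd81 was in 25.3%, Cfap126 (Flattop) in 23.9% and St8sia1 in 18.3% of members. Aldh1a3 (38 UMIs) and Neurog3 (23) were near 0. Of the nuclear respiratory chain genes, Cox6a2 had an excess CV of 0.68, against a median of 0.147 over the 75 measured.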
